A study of Mus musculus with 17 samples.

Results

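Tbx2, Tbx3, Tbx15, Tbx18, Alx4, Pax9, Hand1, Irx3 and Irx5 are 9 transcription factor genes that divide the limb bud into regions. They were taken by name from a deposited table of 34682 genes, and all 9 were among the 17655 genes that passed the filter on low counts. The table holds polyA RNA-seq of mouse limb buds at stage E12.5, made from structural variants at the locus of Sox9 and Kcnj2 on chromosome 11. The 15 libraries fall into 6 genotypes: wild type (WT, 4 libraries), Dup-C (2), Dup-L (2), Dup-LΔBor (4), ΔBor heterozygotes (het, 2) and a ΔBor homozygote (hom, 1). From the published study, Dup-C and Dup-L are duplications that cross a boundary between chromatin domains, of which Dup-C also takes in Kcnj2, and ΔBor is a deletion of that boundary. Dup-LΔBor joins a duplication and the deletion. The labels name no strain, Cre driver or treatment, and they give no zygosity for Dup-C, Dup-L or Dup-LΔBor. They also do not say whether a replicate is a separate embryo or a pool, nor whether forelimbs or hindlimbs were taken. A p-value here reflects only how these libraries vary, and that variation may be technical. The other 2 samples of the series, from fingertips at a later stage, were not analysed here.

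The 9 genes mark different axes of the limb bud. Tbx2 and Tbx3 encode closely related T-box repressors that are active along the anterior and posterior margins and in the tissue between digits. Tbx15 and Tbx18 encode another related pair of T-box factors, expressed in limb and body wall mesenchyme and needed for normal skeletal growth. Alx4 and Pax9 are anterior genes, and loss of either in the mouse gives extra digits on the thumb side. Hand1 encodes a basic helix-loop-helix factor related to Hand2, the posterior regulator that acts with Sonic hedgehog. Irx3 and Irx5 are Iroquois homeobox genes of the same cluster, which act together in the early hindlimb bud on its proximal and anterior elements.

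Library size ranged from 34486256 to 53711742 counts. Summed limb mesenchyme markers (8 genes, Prrx1 and Twist1 among them) lay between 2050 and 2477 CPM (counts scaled to library size, with TMM factors) in all 15 libraries, and none of the 8 was absent. Pitx1, the hindlimb determinant, split the libraries at 20 CPM into 11 high libraries (39.9 to 116 CPM) and 4 low ones (0.518 to 1.83 CPM). The low libraries were WT 2, WT 4 and both Dup-L libraries. Tbx4, a hindlimb gene, was at 18.8 to 27.6 CPM in those 4 and at 62.2 to 109 CPM in the other 11. Because WT holds both classes, Dup-L was compared with WT 2 and WT 4, and every other genotype with WT 1 and WT 3. Column headers carry library numbers in 2 ranges, called batches here: 9 libraries in the first (WT 1, WT 2, Dup-C, Dup-L and ΔBor) and 6 in the second (WT 3, WT 4 and Dup-LΔBor).

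Per transcript length, Tbx15 and Tbx18 were the most abundant of the 9. The FPKM deposited by the authors, a level scaled by gene length and library size, had a median over the 15 libraries of 33.7 for Tbx15 and 23.3 for Tbx18. Tbx2 (median 9.70 FPKM), Tbx3 (7.09), Pax9 (6.96) and Irx5 (5.67) formed a middle tier whose ranges over libraries overlapped. Irx3 (2.69 FPKM), Alx4 (1.87) and Hand1 (1.16) were the lowest. Neighbours in this order overlapped in range, except Tbx18 (20.9 FPKM and above) over Tbx2 (11.7 and below). Tbx15 varied least between libraries, with the highest CPM 1.58 times the lowest, and Hand1 varied most, at 12.3 times. The other 7 genes lay between 1.72 times (Tbx18) and 2.89 times (Irx5).

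**Figure D1:**
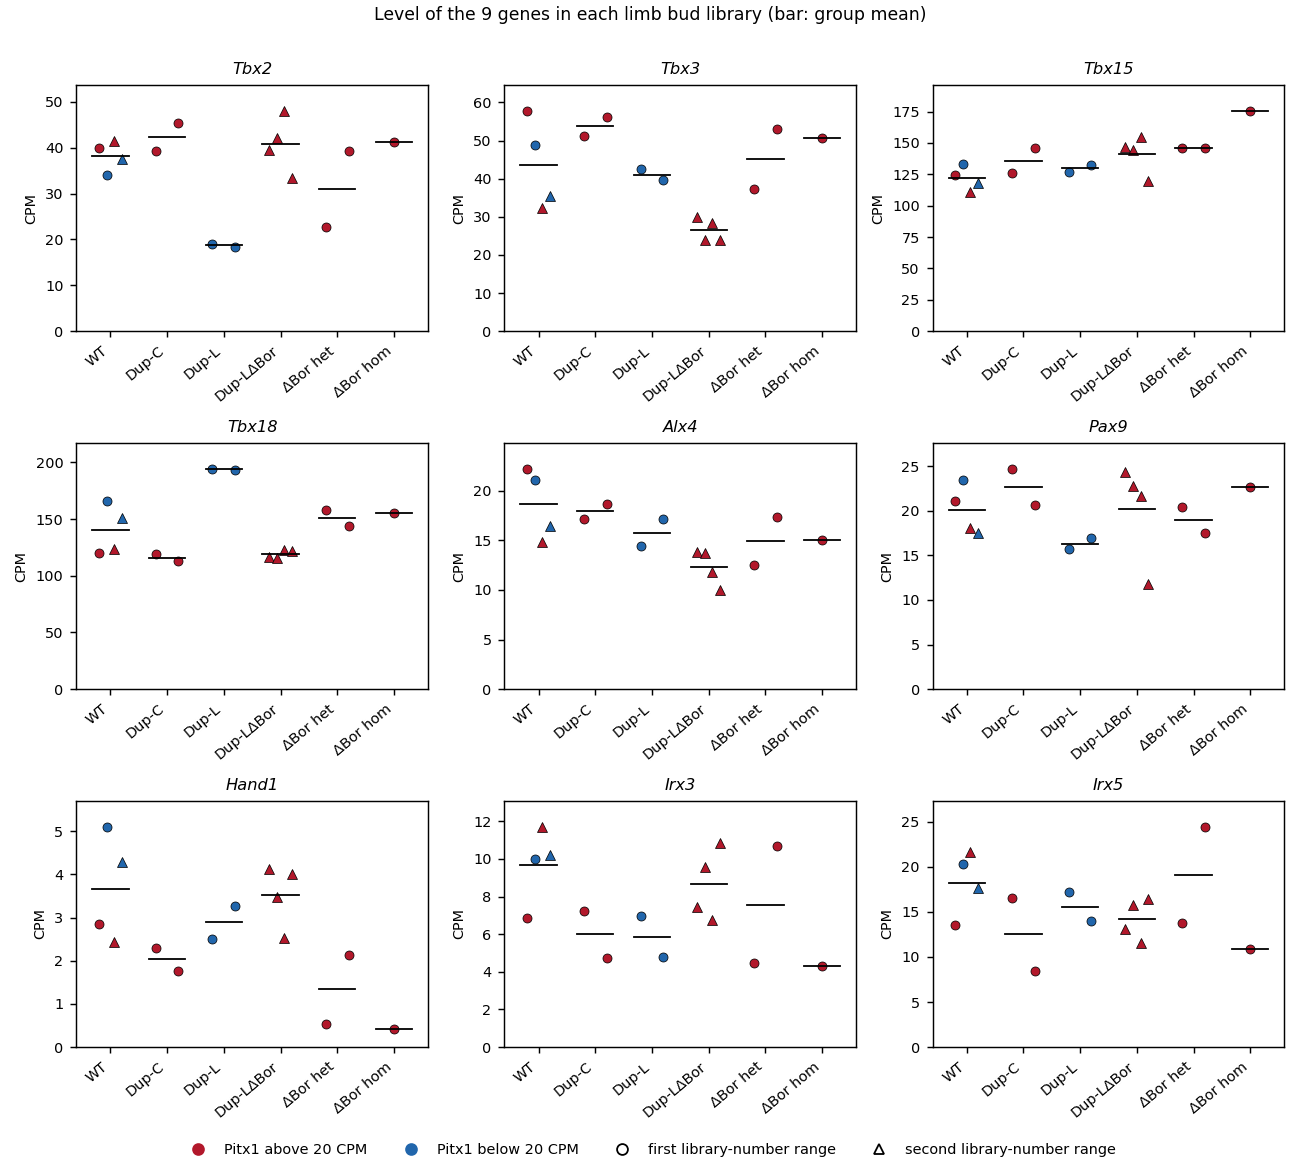
CPM of each of the 9 genes in each of the 15 libraries, by genotype, with Pitx1-high and Pitx1-low libraries marked. Tbx2 is lowest in the 2 Dup-L libraries (18.4 and 19.1 CPM), Tbx18 is highest in them, and Hand1 is lowest in ΔBor hom (0.413 CPM).

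Within Pitx1 classes, 3 of 54 tests on these genes passed an adjusted p of 0.05 (edgeR quasi-likelihood test, Benjamini-Hochberg over all 17655 genes). Tbx2 fell and Tbx18 rose in Dup-L, and Tbx3 fell in Dup-LΔBor. In bulk tissue, fewer cells of a type and less RNA per cell cannot be told apart, here or below. The background differed widely between comparisons. Dup-L called 2 of 9 members where 23.0% of all genes were called, and Dup-LΔBor called 1 of 9 where 7.83% were. No member was called in ΔBor het (1.37% of all genes), ΔBor hom (0.187%), Dup-C (0.00566%) or Dup-C against ΔBor het (0.193%). At an unadjusted p under 0.05 the same 4 comparisons held 3, 4, 0 and 2 members, beside 4248, 4277, 1595 and 2512 of all 17655 genes. DESeq2 called 1, 3, 0 and 1 members, beside 1601, 1347, 2 and 353 of all genes. The edgeR counts over all genes depended on WT 1: within class they were 1 in Dup-C, 242 in ΔBor het and 33 in ΔBor hom with it, and larger without it. Leaving it out sets these first-batch genotypes against WT 3 alone, of the second batch. Batch and genotype cannot be told apart there. The median log2 fold change of the 9 was -0.29 in Dup-L (all genes -0.016), -0.03 in Dup-LΔBor (-0.008), -0.05 in ΔBor het (0.008), 0.02 in ΔBor hom (-0.006) and -0.05 in Dup-C (0.001).

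**Figure D2:**
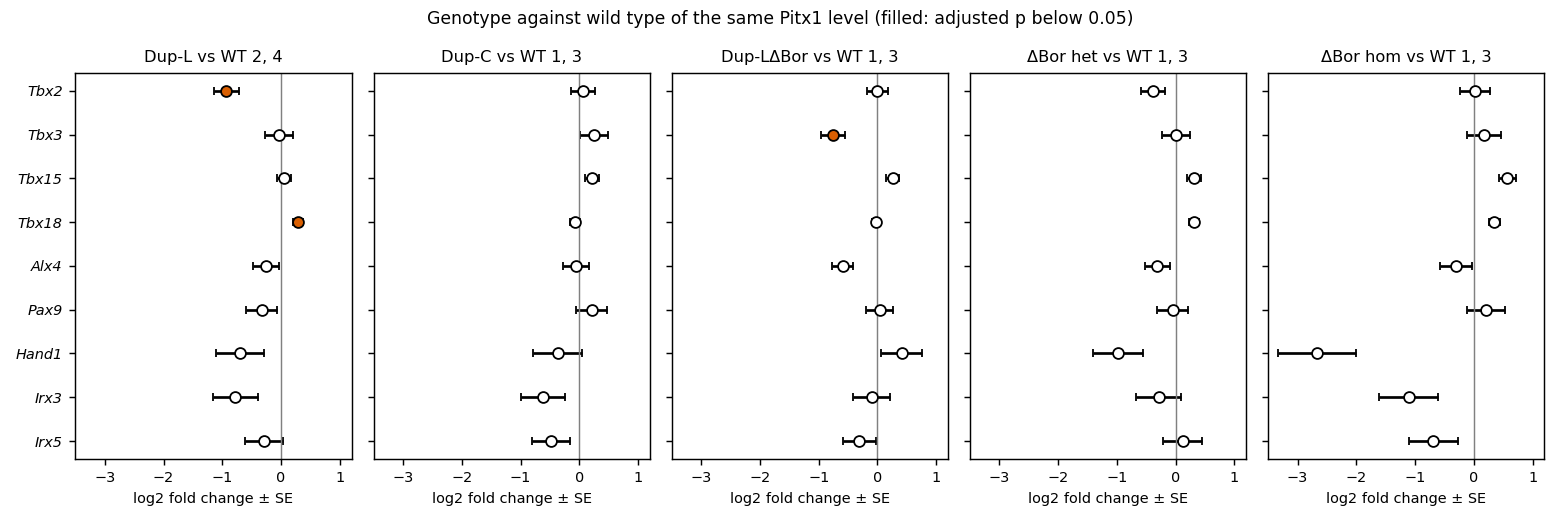
Log2 fold change, with its SE, of each of the 9 genes in the 5 genotypes against WT of the same Pitx1 class. The filled points, those with adjusted p under 0.05, are Tbx2 (-0.93) and Tbx18 (0.29) in Dup-L and Tbx3 (-0.76) in Dup-LΔBor, while the ΔBor hom point of Hand1 lies farthest from 0 (-2.67) with a wide error.

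Tbx2, the repressor of the limb margins, reached 19.1 and 18.4 CPM in the 2 Dup-L libraries, whereas WT 2 and WT 4 held 34.1 and 37.5 CPM. WT 1 and WT 3 held 39.9 and 41.45 CPM, Dup-C 39.3 and 45.35, ΔBor hom 41.2, and the 4 Dup-LΔBor libraries 39.5, 42.05, 47.9 and 33.4. ΔBor het was split, with 22.7 CPM in het 1 and 39.3 in het 2. Both Dup-L libraries thus lay below all 13 others, and het 1 was the next lowest. Against WT of its class the log2 level of Tbx2 in Dup-L fell by 0.93 (SE 0.21, edgeR adjusted p 0.0122). The edgeR call was lost without Dup-L 1 (-0.96, adjusted p 0.0695), without Dup-L 2 (-0.89, adjusted p 0.11) and without WT 4, which leaves WT 2 of the same batch (-0.86, adjusted p 0.0861), while the fold change stayed near its size.

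Base composition moved with the Tbx2 result. The longest transcript of Tbx2 is 63.2% GC, and in Dup-L against its WT the median log2 fold change ran from 0.45 in the fifth of genes lowest in GC to -0.51 in the fifth highest. The 342 genes within 2 GC points of Tbx2 had a median of -0.78 in that comparison, close to the value of Tbx2 itself. With offsets for GC and length in the fit, Tbx2 stood at -0.05 (edgeR adjusted p 0.912), with an SE of 0.15, so no difference of Tbx2 from genes of like composition was detected. Marker sums of other cell types also moved: those of skeletal muscle (8 genes) were 379 to 481 CPM in Dup-L and 651 to 841 in WT 2 and WT 4, and those of nerve and glia (6 genes) 102 to 103 against 147 to 158. Cartilage markers (8 genes, median log2 fold change -0.14) summed to 1099 to 1144 CPM against 1370 to 1690. Col2a1, the only 1 called (-0.99, edgeR adjusted p 0.0266), made most of that difference, at 349 and 357 CPM against 759 and 642. Acan, Matn1 and Sox5 were also lower in both Dup-L libraries, while Sox9, Sox6, Col9a1 and Col11a1 overlapped in range. Endothelial markers (7 genes) summed to 271 to 276 CPM against 306 to 320. Of the endothelial markers, Sox18 fell (-1.0, edgeR adjusted p 0.0164) and Emcn rose (0.47, adjusted p 0.0142). Surface ectoderm markers (8 genes) summed to 502 to 678 CPM in Dup-L and 660 to 745 in WT 2 and WT 4, which overlap. Of these 8, with a median of -0.15, 0 rose and 2 fell: Krt14 (-0.55, edgeR adjusted p 0.026) and Krt8 (-0.74, adjusted p 0.0392). Trp63 was at 80.4 and 65.8 CPM in Dup-L, above the 64.6 and 61.0 of WT 2 and WT 4. The part of these cell types in the Tbx2 result was not tested. In ΔBor het against WT 1 and WT 3, Tbx2 was at -0.39 (SE 0.20, edgeR adjusted p 0.257), and without het 2 at -0.84 (adjusted p 0.0202). Against all WT libraries Tbx2 in het without het 2 was at -0.75 (edgeR adjusted p 0.0239), and Dup-C against het without het 2 had it at 0.90 (adjusted p 0.046). The calls of Tbx2 in het thus came only with het 1 alone. Genes within 2 GC points of Tbx2 had a median of -0.27 in het within class, and with GC and length offsets Tbx2 stood at -0.12 there (edgeR adjusted p 0.725) and at 0.04 against all WT libraries (adjusted p 0.931).

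**Figure D3:**
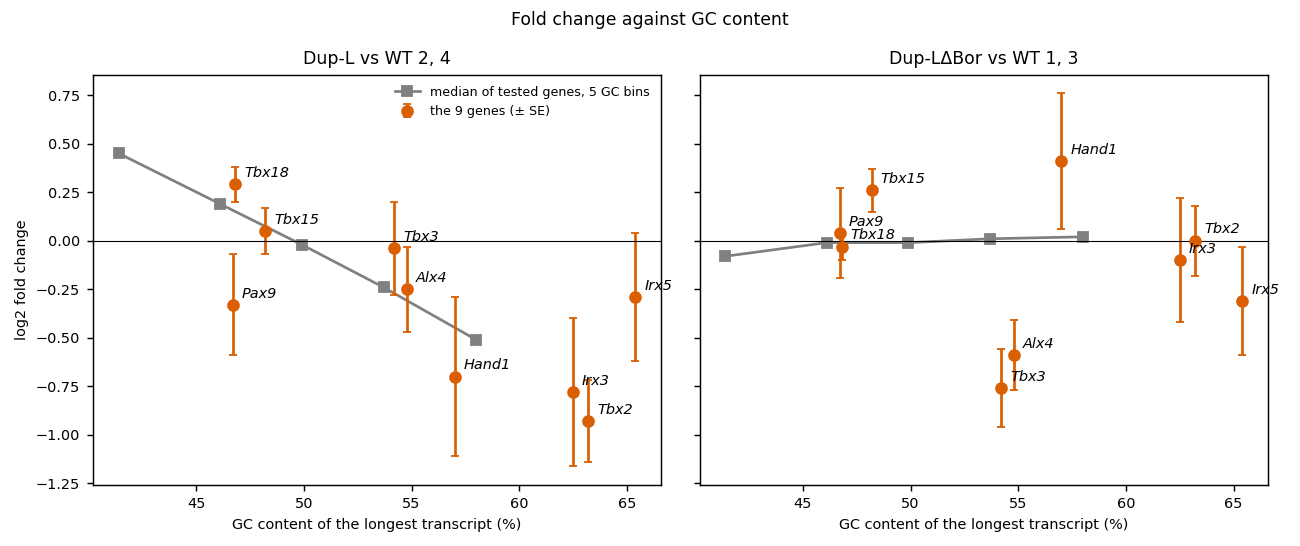
Log2 fold change (with SE) of all 9 genes for Dup-L against WT 2 and WT 4 (left) and for Dup-LΔBor against WT 1 and WT 3 (right), plotted against the GC content of its longest transcript in percent, with the medians of 5 bins of all genes as a line. In Dup-L the line falls from 0.45 to -0.51 and Tbx2 lies near it, while in Dup-LΔBor Tbx3 and Alx4 lie below a nearly level line.

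Tbx3, the paralogue of Tbx2 and neighbour of Tbx5, was at 29.9, 23.9, 28.5 and 23.9 CPM in the 4 Dup-LΔBor libraries. WT 1 and WT 3 held 57.7 and 32.4 CPM of Tbx3, and WT 2 and WT 4 held 48.7 and 35.4. Elsewhere it held 51.2 and 56.3 CPM in Dup-C, 42.5 and 39.55 in Dup-L, 37.3 and 52.9 in ΔBor het and 50.75 in ΔBor hom. Every Dup-LΔBor library was below every other library, and the 2 WT libraries of the same batch were the next lowest. Against WT 1 and WT 3, Tbx3 fell in Dup-LΔBor by 0.76 on the log2 scale (SE 0.20, edgeR adjusted p 0.0405).

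The size of the Tbx3 difference depended on the batch of the WT libraries. Tbx3 was the 1 member of 9 whose CPM did not overlap between batches (37.3 and above in the first, 35.4 and below in the second), a split that 14.5% of all genes showed. With the batch as a term Tbx3 stood at -0.38 (edgeR adjusted p 0.19), and against WT 3 alone, without WT 1, at -0.30 (adjusted p 0.45). Leaving out any 1 Dup-LΔBor library also ended the Tbx3 call, at adjusted p 0.0547 to 0.0893 (edgeR) and fold changes of -0.72 to -0.83. Genes within 2 GC points of Tbx3 had a median of 0.01 in this comparison, and with GC and length offsets Tbx3 was at -0.85 (edgeR adjusted p 0.0219). Against all 4 WT libraries, where 3.85% of all genes were called, Tbx3 was at -0.71 (edgeR adjusted p 0.0361), and within the second batch at -0.35 (adjusted p 0.21). Surface ectoderm markers (8 genes) summed to 628 to 770 CPM in Dup-LΔBor and 880 to 1039 in WT 1 and WT 3, nerve and glia markers to 99.5 to 121 against 130 to 155, and their part in the Tbx3 result was not tested. In no other genotype did Tbx3 pass within its class, and its edgeR estimates there ran from -0.04 in Dup-L to 0.25 in Dup-C.

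Tbx18 is the member whose upstream sequence is shown, because its level differed between Pitx1-high and Pitx1-low WT libraries as well as in Dup-L. The table of RefSeq promoters held entries for 3 of the 9 genes. The 250 bases before the Tbx18 start (chr9:87731261-87731510, minus strand, GRCm38.p6), 5′ to 3′, contain a CCAAT box on the opposite strand, ATTGG, shown in capitals 87 bases before the start.
Tbx18 promoter: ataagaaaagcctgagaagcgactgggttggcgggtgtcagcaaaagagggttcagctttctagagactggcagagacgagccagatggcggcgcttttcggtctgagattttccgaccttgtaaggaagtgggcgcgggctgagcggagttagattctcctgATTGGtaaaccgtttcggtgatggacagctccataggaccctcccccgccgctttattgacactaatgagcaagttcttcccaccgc
CCAAT or its reverse ATTGG occurs in 34.5% of the 27025 RefSeq windows of this length. Of the other motifs searched on both strands, TAATCC (bound by PITX proteins, in 6.38% of windows), AGGTGTGA (bound by T-box proteins, 1.14%) and GACCACCCA (bound by GLI proteins, 0.211%) are not in this window. The window is 54% GC, against a median of 52.0% over all windows.

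The level of Tbx18 was 193.9 and 193.5 CPM in Dup-L 1 and Dup-L 2, higher than in every other library. WT 2 and WT 4, of the same class, held 166 and 151 CPM, and WT 1 and WT 3 held 120 and 123. Dup-C held 119 and 113 CPM, and the other values were 117, 116, 123 and 121 in Dup-LΔBor, 158 and 144 in ΔBor het and 155 in ΔBor hom. Among Pitx1-high libraries, the 3 ΔBor libraries thus lay above all 8 others, and the WT, Dup-C and Dup-LΔBor libraries spanned a range of 113 to 123 CPM. The share of all genes that set these 3 libraries apart was not counted. In Dup-L against its WT class, Tbx18 rose by 0.29 on the log2 scale (SE 0.09, edgeR adjusted p 0.0287). Genes within 2 GC points of Tbx18 had a median of 0.15 there.

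The Tbx18 call in Dup-L depended on single libraries. The edgeR call was lost without Dup-L 1 (0.29, adjusted p 0.116), without Dup-L 2 (0.30, adjusted p 0.136) and without WT 4 (0.23, adjusted p 0.181). It was also lost with GC and length offsets (0.17, edgeR adjusted p 0.273) and with the batch as a term (0.27, adjusted p 0.057). Against all 4 WT libraries, 32.4% of genes were called in Dup-L, Tbx18 among them at 0.47 (SE 0.11, edgeR adjusted p 0.00631), a value that mixes the classes. Without Dup-L 2 that comparison gave Tbx18 0.48 (edgeR adjusted p 0.0619), and within the first batch 0.41 (adjusted p 0.06). Tbx2 was at -1.03 there (SE 0.19, edgeR adjusted p 0.00192), and at -0.23 with GC and length offsets (adjusted p 0.415).

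In ΔBor, Tbx18 was higher than in WT 1 and WT 3 by 0.31 in het (SE 0.09, edgeR adjusted p 0.0689) and by 0.35 in hom (SE 0.10, adjusted p 0.102), and neither passed. DESeq2 called Tbx18 in both, at adjusted p 0.0148 and 0.0307, and edgeR called it in het without het 2 (0.38, adjusted p 0.0336). Over the alternatives Tbx18 ran from 0.17 to 0.38 in het and from 0.24 to 0.37 in hom. Genes within 2 GC points of Tbx18 had medians of 0.09 in het and 0.10 in hom. Dup-C, set against ΔBor het, had Tbx18 at -0.38 (SE 0.09, edgeR adjusted p 0.0901), and with the batch as a term at the same size (adjusted p 0.0391). Tbx18 is also a gene of somites and body wall, so markers of those tissues were read beside it. The 6 markers summed to 157 to 159 CPM in Dup-L, 153 to 159 in ΔBor het and 158 in ΔBor hom, against 129 to 136 in WT 1 and WT 3, 137 to 143 in WT 2 and WT 4, 131 to 143 in Dup-C and 110 to 132 in Dup-LΔBor. Meox2, which limb muscle precursors also express, gave most of that sum (96.5 to 148 CPM). Of the defining somite markers, Uncx was at 0 in 13 of 15 libraries and at most 0.053 CPM, and Pax1 stayed at or below 2.07 CPM. The somite markers Nkx3-2 and Tcf15 fell in Dup-L within class (-1.33, edgeR adjusted p 0.0158, and -1.13, adjusted p 0.0242) and rose in Dup-LΔBor (1.01, adjusted p 0.0397, and 0.97, adjusted p 0.0453). In Dup-L the sum, mostly Meox2, and these 2 markers thus moved in opposite directions. Pax1 went with the sum: Dup-L held 2.07 and 1.95 CPM, against 1.61 in WT 2 and 0.639 in WT 4. It was not called there (0.80, SE 0.45, edgeR adjusted p 0.218). The ranges of Meox1 overlapped, with 7.26 to 8.31 CPM in Dup-L and 7.62 to 8.36 in WT 2 and WT 4. The part of these tissues in the Tbx18 result was not tested.

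**Figure D4:**
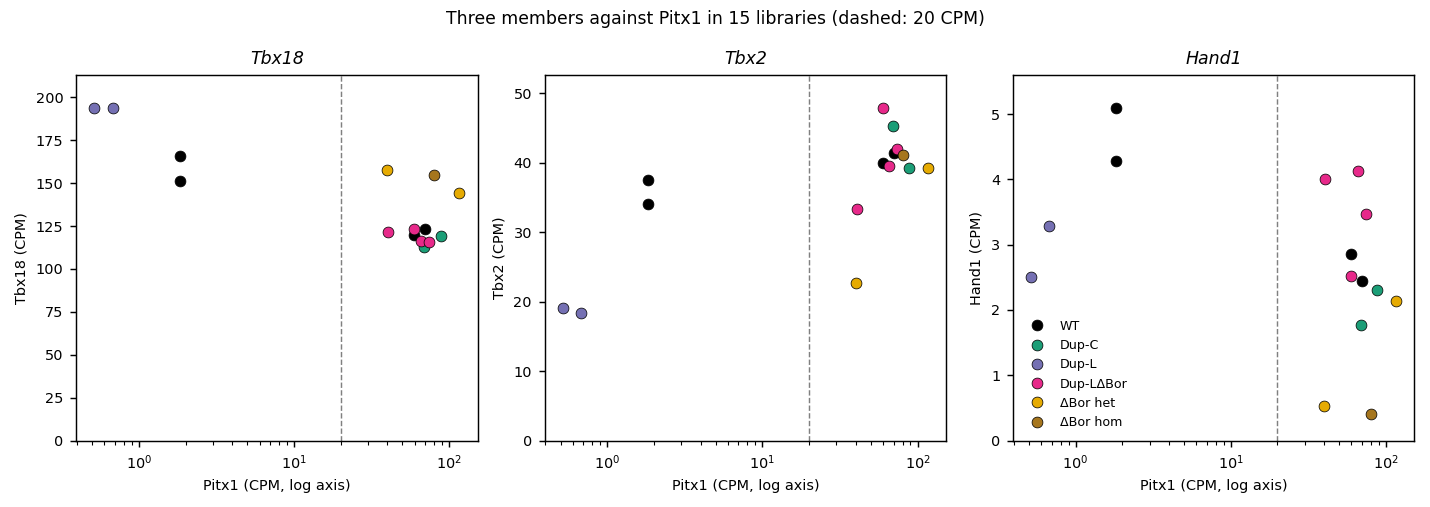
CPM of Tbx18, Tbx2 and Hand1 against CPM of Pitx1 (log axis, dashed line at 20 CPM) in the 15 libraries, by genotype. The 4 Pitx1-low libraries hold the highest Tbx18 in Dup-L (193.9 and 193.5 CPM), but the ΔBor libraries reach 144 to 158 at high Pitx1, so the classes overlap.

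No member separated all Pitx1-high from all Pitx1-low libraries, a separation that 2.06% of all genes showed. Within WT, 3 members did: Tbx18 and Hand1 were higher and Tbx2 was lower in WT 2 and WT 4. That split of 2 against 2 libraries was without overlap for 42.4% of all genes, and since the classes were cut from the data it was not tested. Hand1 stood at 2.44 and 2.86 CPM in the high pair and at 4.28 and 5.095 in the low pair.

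Tbx15, the other member of the Tbx18 pair, differed less between genotypes. It was at 124.7, 133, 111 and 118 CPM in WT 1 to WT 4, at 126 and 146 in Dup-C and at 127 and 132 in Dup-L. Dup-LΔBor held 146, 144, 155 and 120 CPM, ΔBor het 145.8 and 146.2, and ΔBor hom 175, the highest of all libraries. The ΔBor hom library lay above the WT range, as did both het libraries, the higher Dup-C library and 3 of the 4 Dup-LΔBor libraries. Tbx15 did not pass in any comparison within a class: it was at 0.57 in ΔBor hom (SE 0.14, edgeR adjusted p 0.0893), 0.31 in ΔBor het (SE 0.12, adjusted p 0.141), 0.26 in Dup-LΔBor (SE 0.11, adjusted p 0.13), 0.21 in Dup-C (adjusted p 0.551) and 0.05 in Dup-L (adjusted p 0.82). DESeq2 called Tbx15 in ΔBor hom (0.57, adjusted p 0.0168). Without WT 1 the edgeR estimate was 0.65, but WT 3 of the second batch then stood alone against this first-batch library. Batch and genotype cannot be told apart there. Both Tbx15 and Tbx18 were thus higher in the single hom library than in WT of its class, without an edgeR call for either on all libraries.

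Alx4, the anterior homeobox gene, was at 13.8, 13.7, 11.8 and 9.945 CPM in Dup-LΔBor. WT 1 and WT 3 held 22.15 and 14.8 CPM, and WT 2 and WT 4 held 21.1 and 16.4. It was at 17.2 and 18.6 CPM in Dup-C, 14.4 and 17.1 in Dup-L, 12.51 and 17.35 in ΔBor het and 15.01 in ΔBor hom. All 4 Dup-LΔBor libraries lay below all 4 WT libraries, but het 1 lay among them. Against WT 1 and WT 3 the Alx4 difference was -0.59 (SE 0.18, edgeR adjusted p 0.0648) and did not pass. DESeq2 called Alx4 (-0.60, adjusted p 0.0215), and edgeR did so with GC and length offsets (-0.68, adjusted p 0.0266). Without WT 3 the edgeR estimate was -0.85, against WT 1 of the first batch alone, so batch and genotype cannot be told apart there.

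As with Tbx3, the Alx4 difference was smaller within the second batch. With the batch as a term Alx4 in Dup-LΔBor was at -0.32 within the class (edgeR adjusted p 0.316). Against all 4 WT libraries Alx4 was called (-0.60, SE 0.15, edgeR adjusted p 0.0447), and against WT 3 and WT 4 of its own batch it was at -0.34 (adjusted p 0.322). Leaving out any 1 Dup-LΔBor library, WT 1 or WT 2 ended that Alx4 call, at edgeR adjusted p 0.0701 to 0.111. The same comparison lost its Tbx3 call without any of those libraries, at edgeR adjusted p 0.0617 to 0.103. No other genotype had Alx4 past the threshold, with estimates of -0.05 in Dup-C, -0.25 in Dup-L, -0.31 in ΔBor het and -0.30 in ΔBor hom within class.

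Pax9, a paired-box gene of the anterior mesenchyme, passed in no edgeR comparison on all libraries. It was at 21.1, 23.4, 18.1 and 17.47 CPM in WT 1 to WT 4, 24.65 and 20.7 in Dup-C and 15.7 and 17.0 in Dup-L. Dup-LΔBor held 24.3, 22.8, 21.7 and 11.8 CPM, ΔBor het 20.4 and 17.55, and ΔBor hom 22.6. Dup-LΔBor R5 stood alone at the bottom, and the Dup-L pair lay just under the WT range. In Dup-L against its WT class Pax9 was at -0.33 (SE 0.26, edgeR adjusted p 0.393), while genes of like GC had a median of 0.15. Within the first batch only, Dup-L against WT 1 and WT 2 gave Pax9 -0.47 (edgeR adjusted p 0.0406).

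Overlapping genes bear on these readings. The annotation places Ext2 over Alx4 and Slc25a21 over Pax9 on the opposite strand, both also in the count table. It places antisense transcripts over Tbx3 (Tbx3os1), Tbx15 (Gm43120), Pax9 (Gm15524) and Irx3 (Irx3os), and D030062O11Rik over Tbx18 on the opposite strand. Whether the counting used strand is unstated in the sources used here, so reads of such partners cannot be told apart.

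Hand1 had the lowest level of the 9 and the widest spread. ΔBor hom held 15 reads, or 0.413 CPM (exact Poisson 95% interval 0.231 to 0.681, counting error only), and ΔBor het 1 held 20 reads, or 0.529 CPM (0.323 to 0.817). ΔBor het 2 was at 2.14 CPM, inside the range of Dup-C (2.30 and 1.77) and near Dup-L (2.51 and 3.28). WT 1 to WT 4 held 2.86, 5.095, 2.44 and 4.28 CPM, and Dup-LΔBor 4.13, 3.47, 2.53 and 4.004. The intervals of ΔBor hom and het 1 overlapped each other and lay below the value of every other library.

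Against WT 1 and WT 3 Hand1 was at -2.67 in ΔBor hom (SE 0.66, edgeR adjusted p 0.0887) and at -0.98 in ΔBor het (SE 0.43, adjusted p 0.182). Neither passed, and the hom value rests on 1 library. DESeq2 called Hand1 in hom (-2.69, adjusted p 0.00205). Without WT 1 the edgeR estimate was -2.56, against WT 3 of the second batch alone, so batch and genotype cannot be told apart there. In het the result turned on which library was kept, since without het 2 Hand1 was at -2.32 (edgeR adjusted p 0.00943). Against all 4 WT libraries, where 1.27% of genes were called in hom and 4.03% in het, Hand1 was called in hom (-3.14, SE 0.71, edgeR adjusted p 0.0489). In het it was not (-1.45, SE 0.44, adjusted p 0.0678), though it was without WT 1 (-1.56, adjusted p 0.0372) or without het 2 (-2.785, adjusted p 0.0143), and DESeq2 called it on all libraries (-1.45, adjusted p 0.00937). Dup-C against het had Hand1 at 0.61 (edgeR adjusted p 0.559), and at 1.95 (adjusted p 0.0479) without het 2. The hom call of Hand1 was lost without WT 2 (-2.91, edgeR adjusted p 0.0559), WT 3 (-3.29, adjusted p 0.0508) or WT 4 (-3.04, adjusted p 0.0876), and it stood at -3.30 (adjusted p 0.239) within the first batch. Genes of like GC had a median of -0.31 in hom against WT 1 and WT 3.

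Other tissues differed in the same libraries. Skeletal muscle markers summed to 274 CPM in ΔBor hom and 341 in het 1, the lowest of the 15 libraries, and to 389 to 569 in WT 1 and WT 3. Nerve and glia markers were lowest in the same 2 libraries, at 82.5 CPM in hom and 93.6 in het 1, against 130 to 155 in WT 1 and WT 3. Surface ectoderm markers summed to 577 CPM in hom and 580 to 645 in het, against 880 to 1039, and Krt14 fell in both (-1.11, edgeR adjusted p 0.0485, and -0.85, adjusted p 0.0248). Erythroid markers (7 genes) were highest in ΔBor hom, at 6162 CPM, while het held 3030 to 3141 and WT 1 and WT 3 held 3593 to 4921. Their part in the Hand1 result was not tested. Hand1 in Dup-LΔBor (0.41, edgeR adjusted p 0.487), Dup-C (-0.37, adjusted p 0.739) and Dup-L (-0.70, adjusted p 0.229) did not pass. Hand2, its relative, was at 0.20 in ΔBor hom and -0.07 in het against WT 1 and WT 3 (SE 0.17 and 0.14).

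Irx3 and Irx5 lie next to each other on chromosome 8, between Fto and Irx6. Irx3 was at 6.87, 9.99, 11.7 and 10.2 CPM in WT 1 to WT 4, 7.23 and 4.76 in Dup-C, 6.95 and 4.79 in Dup-L and 7.43, 9.58, 6.74 and 10.9 in Dup-LΔBor. ΔBor het held 4.44 and 10.7 CPM and ΔBor hom 4.295, the lowest. Irx5 was at 13.5, 20.3, 21.6 and 17.6 CPM in WT 1 to WT 4, 16.6 and 8.44 in Dup-C, 17.2 and 13.95 in Dup-L and 13.1, 15.7, 11.5 and 16.4 in Dup-LΔBor. ΔBor het held 13.8 and 24.4 CPM of Irx5, and ΔBor hom 10.9. In Dup-C, Dup-L and ΔBor het the replicate that was higher in Irx3 was also higher in Irx5, and WT 1 was the lowest WT library for both. The spread between replicates of 1 genotype was as wide as that between genotypes, as in ΔBor het.

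**Figure D5:**
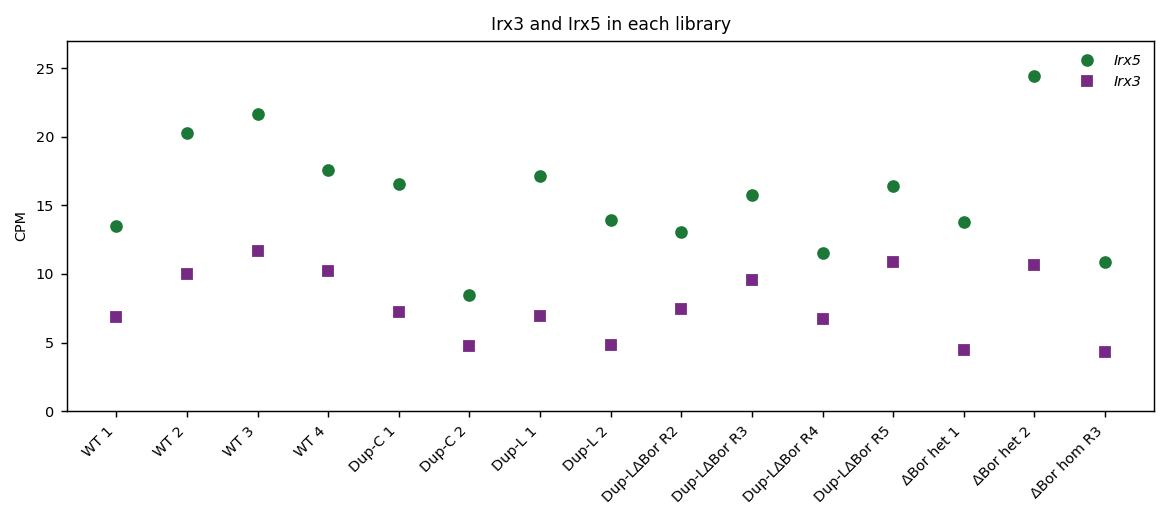
CPM of Irx5 (circles) and Irx3 (squares) in each of the 15 libraries. Irx5 lies above Irx3 in every library on this scale, which is not per length, and the ratio of Irx5 to Irx3 counts runs from 1.51 in Dup-LΔBor R5 to 3.10 in ΔBor het 1.

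Neither Irx gene passed by edgeR in any comparison within a class on all libraries, nor by DESeq2. Irx3 in Dup-L did pass within its class when only those 2 groups were fitted (-0.77, edgeR adjusted p 0.0168). Against all WT libraries DESeq2 called Irx3 in Dup-L (-0.74, adjusted p 0.0487) and in ΔBor hom (-1.17, adjusted p 0.0363), where edgeR did not. The largest estimates were in ΔBor hom, with Irx3 at -1.11 (SE 0.50, edgeR adjusted p 0.195) and Irx5 at -0.69 (SE 0.42, adjusted p 0.334). In Dup-L, Irx3 was at -0.78 (SE 0.38, edgeR adjusted p 0.159) and Irx5 at -0.29 (SE 0.33, adjusted p 0.569), and in Dup-C they were at -0.62 (adjusted p 0.561) and -0.48 (adjusted p 0.587). Dup-LΔBor had Irx3 at -0.10 and Irx5 at -0.31, and ΔBor het at -0.29 and 0.12. Irx3 and Irx5 are rich in GC (62.5% and 65.4%), and genes of like GC had medians of -0.72 and -0.90 in Dup-L. With GC and length offsets in Dup-L, Irx3 stood at 0.00 and Irx5 turned to 0.72 (edgeR adjusted p 0.229).

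The ratio of Irx5 to Irx3 counts, which does not depend on library scaling, was 1.51 to 1.76 in Dup-LΔBor and 1.72 to 2.03 in WT. It was 2.47 and 2.91 in Dup-L, 2.28 and 3.10 in ΔBor het, 2.54 in ΔBor hom and 1.77 and 2.29 in Dup-C. Every Dup-L and ΔBor library, all of the first batch, lay above the WT range, as did Dup-C 1 of that batch. The ratio also differed by batch within WT. It was 1.96 and 2.03 in WT 1 and WT 2 of the first batch, and 1.85 and 1.72 in WT 3 and WT 4 of the second. All Dup-LΔBor libraries are of the second batch. The ratio was not tested between genotypes, nor was the part of the batch in it.

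Relatives of the members were read from a list of 27 other T-box, Alx, Pax, Irx and Hand genes, of which 19 were tested. The list counts in Dup-L that follow are to be read against the 23.0% of all genes called there, a share that 4 of 19 does not exceed. Without Dup-L 1 or without Dup-L 2, edgeR called 0 genes of the whole table in that comparison (5079 and 4300 at an unadjusted p under 0.05), so each of these Dup-L calls is then lost, and with GC and length offsets 35 genes passed in place of 4052. In Dup-L against its WT class 0 rose and 4 fell: Tbx1 (-0.66), Tbx4 (-0.48), Irx1 (-1.26) and Hand2 (-0.42), with a list median of -0.21. In Dup-LΔBor, where 7.83% of all genes were called, Tbx4 rose (0.42) and Irx4 fell (-0.77). Tbx4 is the hindlimb T-box gene beside Tbx2 on chromosome 11. Both were called lower in Dup-L, though Tbx2 stood at -0.05 with GC and length offsets. In Dup-LΔBor Tbx4 was called higher while Tbx2 stood at 0.00. Tbx4 held 93.0 to 109 CPM in Dup-LΔBor, 86.5 in WT 3 of the same batch and 64.4 in WT 1 of the other. The part of the batch in this Tbx4 result was not tested.

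Among 18 hedgehog and anterior-posterior genes in Dup-L, 1 rose and 4 fell: Hoxd13 was higher (0.58), and the mediators Gli2 (-0.59) and Gli1 (-0.64) were among those lower. Of 17 BMP genes in Dup-L, 2 rose and 5 fell: the receptors Bmpr1a (0.51) and Bmpr2 (0.55) were higher, and the targets Id3 (-0.71) and Id1 (-0.90) were the first of those lower. In Dup-LΔBor the ligands Bmp4 (-0.41) and Bmp2 (-0.38) fell, and no hedgehog gene passed. Of 17 distal genes, Hoxd13 rose and Msx1 (-1.71) fell in Dup-L, and Bmp2 fell in Dup-LΔBor. Of 12 proximal genes tested, Scx (-1.14), a tendon gene, fell in Dup-L and none passed in Dup-LΔBor. Of the 73 distinct genes tested over the 5 lists, edgeR called 0 within class in Dup-C, ΔBor het, ΔBor hom and Dup-C against ΔBor het. There 7, 14, 15 and 15 of the 73 had an unadjusted p under 0.05, beside 1595, 4248, 4277 and 2512 of all 17655 genes. DESeq2 called 0, 3, 4 and 2 of the 73, beside 2, 1601, 1347 and 353 of all genes. Median fold changes of the lists in Dup-L ran from -0.21 for the relatives to 0.12 for the proximal genes, against -0.016 over all genes.

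The genes with the most similar pattern were found by the mean absolute difference of centred log2 CPM over the 15 libraries, among 11151 genes with a mean of at least 5 CPM. For Tbx2 these were Ier2 (0.094) and Wnt6 (0.098), a ligand of the surface ectoderm. Wnt6 stood at 20.3 and 17.0 CPM in Dup-L and 22.2 in het 1, the same 3 libraries that were lowest in Tbx2. Wnt6 was chosen for its likeness to Tbx2 in these libraries, so that overlap follows from the choice. Tbx18 was closest to Csrnp3 (0.071) and Zfp11 (0.088), and Tbx15 to 2810408A11Rik (0.071) and Fan1 (0.079). Tbx3 was closest to Zfp697 (0.095) and Cby1 (0.116), Alx4 to Ly6e (0.115) and Fjx1 (0.116), and Pax9 to Tctn2 (0.117) and Sars2 (0.126). Hand1 had the least close neighbours, Slc6a17 (0.218) and Cpne5 (0.301). Irx3 was closest to Lmna (0.160) and Sdk2 (0.166), and Irx5 to Nfix (0.119) and Rprm (0.126), so neither Irx gene led the ranking of the other, Irx5 being 124th for Irx3 and Irx3 306th for Irx5 at 0.245.

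Against all 4 WT libraries, Dup-C called no member, with 0.00566% of all genes called there. At an unadjusted p under 0.05 it held 1 member, beside 2933 of all 17655 genes. DESeq2 and limma on log2(FPKM + 1) called 0 members, beside 6 and 1 of all genes. Over the 11 comparisons, 8 of 99 member tests passed by edgeR: the 3 within classes, and against all WT libraries Tbx2 and Tbx18 in Dup-L, Tbx3 and Alx4 in Dup-LΔBor and Hand1 in ΔBor hom. DESeq2 called 18 of the 99, and limma on log2(FPKM + 1) called 5. The calls over all genes differed between tools as well. In ΔBor hom DESeq2, edgeR and limma called 2160, 225 and 39 genes against all WT libraries, and 1347, 33 and 21 within class. In Dup-L against all WT libraries they were nearer, at 6171, 5719 and 5760. Against all WT libraries the calls of DESeq2 beyond those of edgeR were Irx3 in Dup-L, Hand1 in ΔBor het, and Tbx15 (0.53, adjusted p 0.0108) and Irx3 in ΔBor hom. Comparisons that use the same WT libraries are not independent of each other.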

How the data were processed

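PolyA RNA-seq libraries (TruSeq RNA V2 kit, per the labels' protocols) of stage E12.5 limb buds were analysed from 2 deposited tables. The first holds raw counts per gene in 15 libraries, made by the authors. The second holds FPKM values per gene, deposited by the authors for the same libraries. STAR, DESeq2, bedtools 2.17.0 and the build mm9 are named per the submitters' processing notes. Which program counted the reads, on which annotation and with which strand setting is unstated in the sources used here. Libraries held 34486256 to 53711742 counts, which sets the precision of each value.

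The model was edgeR 4.0.16 in R 4.3.3, with TMM factors, genes kept by filterByExpr on label groups and the robust two-sided quasi-likelihood test, in 1 fit with 6 label groups and 1 with WT split at 20 CPM of Pitx1. The first compared 5 genotypes with all WT libraries, the second 5 with WT of their class and Dup-C with ΔBor het. Benjamini-Hochberg adjustment covered 17655 genes at a threshold of 0.05, and "rose", "fell" and "called" are used only past it. SEs come from the F-statistic. The alternatives were RLE scaling, no count filter, fits of only the groups compared, the batch as a term, GC and length offsets, a replicate block, DESeq2 1.42.0, limma 3.58.1 on log2(FPKM + 1) or log2(FPKM + 0.1), and each library left out. Fits within the batch were added after the data were seen. The code was tested on simulated data. GC content and length were taken by symbol from GENCODE M21 (GRCm38), and 91.5% of the genes tested matched.

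The Dup-LΔBor columns are named R2 to R5 and the ΔBor hom column R3, where the labels number from 1, so these were matched to their group only. R4 and R5 share a library number in their headers, yet their difference lay within the range of the other pairs of that group (mean chi-square per gene 26.0, others 6.04 to 33.9). The 9 genes, the lists of relatives, hedgehog, BMP, proximal and distal genes and the marker lists were chosen with earlier results of these data known. All 9 genes are named with their values, and of each list up to 4 called genes per comparison in order of adjusted p, except 1 that is not reported here. For likeness the 2 nearest genes are named.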

Additional observations from a re-analysis of the deposited data

How the results depend on the processing

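Of 1548 values of the 9 genes under the alternatives, 1453 kept their side of the threshold, 67 lost a call, 28 gained one, and no called value changed sign, while 118 uncalled ones did. The counts of genes passing over the whole table moved more. With all libraries, edgeR called 1 gene in Dup-C against all WT libraries, 5719 in Dup-L, 679 in Dup-LΔBor, 712 in ΔBor het and 225 in ΔBor hom. Within Pitx1 classes it called 1 in Dup-C, 4052 in Dup-L, 1383 in Dup-LΔBor, 242 in ΔBor het, 33 in ΔBor hom and 34 in Dup-C against ΔBor het. Each alternative is given against all WT libraries first and then within class, in the same order of genotypes, where the count moved by over 1.5 times, and the cause was not tested. GC and length offsets gave 677 in Dup-L, 1125 in Dup-LΔBor, 71 in het and 12 in hom, then 0 in Dup-C, 35 in Dup-L, 2516 in Dup-LΔBor, 117 in het and 13 in hom. Adding the batch to those offsets gave 0 in Dup-C, 93 in Dup-L, 129 in Dup-LΔBor, 24 in het and 10 in hom, then 0 in Dup-C, 13 in Dup-L, 110 in het, 17 in hom and 456 in Dup-C against het. The batch as a term gave 70 in Dup-LΔBor, 32 in het and 26 in hom, then 0 in Dup-C, 2650 in Dup-L, 706 in Dup-LΔBor, 112 in het and 215 in Dup-C against het. Fits within the batch, added after the data were seen, gave 0 in Dup-C, 3036 in Dup-L, 66 in Dup-LΔBor, 55 in het and 26 in hom. DESeq2 called 6 in Dup-C, 1634 in Dup-LΔBor, 2074 in het and 2160 in hom, then 2 in Dup-C, 2251 in Dup-LΔBor, 1601 in het, 1347 in hom and 353 in Dup-C against het. Fits of only the groups compared gave 114 in Dup-LΔBor, 9 in het and 3 in hom, then 0 in Dup-C, 755 in Dup-LΔBor, 5 in het, 5 in hom and 63 in Dup-C against het. No count filter gave 114 in hom, then 434 in het, 76 in hom and 56 in Dup-C against het. Limma on log2(FPKM + 1) gave 39 in hom, then 0 in Dup-C, 140 in het and 21 in hom. Without the filter on low FPKM it gave 3 in Dup-C, 210 in Dup-LΔBor and 102 in het, then 5 in Dup-C, 718 in Dup-LΔBor, 69 in het and 112 in hom. On log2(FPKM + 0.1) it gave 92 in hom, then 0 in Dup-C, 133 in het and 17 in Dup-C against het. The counts of 0 in Dup-C came with 352 to 1256 genes at an unadjusted p under 0.05.

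Leaving out 1 library at a time gave 1 to 1640 in Dup-C, 1122 to 5952 in Dup-L, 81 to 1516 in Dup-LΔBor, 19 to 2490 in het and 21 to 2750 in hom, then 0 to 1077, 0 to 2530, 392 to 2580, 17 to 2438 and 53 to 2787 within class, and 8 to 123 in Dup-C against het. WT 1 gave the highest counts when left out in Dup-C, het and hom, het 1 the lowest in het, WT 3 the highest in Dup-LΔBor within class, and either Dup-L library the count of 0 within class (edgeR, with 5079 and 4300 genes at an unadjusted p under 0.05). A group left with 1 library is assumed there to vary like the others. Within class, leaving out WT 1 sets the first-batch Dup-C and ΔBor libraries against WT 3 alone, of the second batch. Leaving out WT 3 sets the second-batch Dup-LΔBor libraries against WT 1 alone, of the first. Batch and genotype cannot be told apart in either case.

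Replicate numbers 1 and 2 do not pair the samples: differences between numbers correlated across groups at -0.308 to 0.137 over genes. With the number as a replicate block, edgeR called 0 genes in Dup-C (381 at an unadjusted p under 0.05), 1374 in Dup-L and 37 in ΔBor het, and Tbx18 in Dup-L stood at 0.425 (adjusted p 0.0874). Depth limits Hand1 most, with 15 and 20 reads in its lowest libraries, and the single ΔBor hom library has no replicate check.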
